A study of Mus musculus with 6 samples.

Results

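Immediate early genes are switched on by growth factors, serum or stress from transcription factors already present in the cell, without new protein being made. ERK and p38 kinases act on the ternary complex factors and SRF at serum response elements, and on CREB at cyclic AMP response elements, and the resulting mRNAs are short-lived. In mouse embryonic stem cells ERK is driven largely by FGF4, and a change of medium or the collection of a culture can also move these transcripts. The values are therefore given array by array. The set described here was the 9 genes Egr1, Fos, Fosb, Jun, Junb, Ier2, Ier3, Zfp36 and Atf3. Members were all probe sets that the platform annotation gives to these symbols. This rule found 10 probe sets among the 45101 of the table, 2 for Jun and 1 for each of the other genes, or 9 of 18193 genes with a symbol. All 10 were tested.

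Expression was measured on 6 Affymetrix Mouse Genome 430 2.0 arrays of mouse embryonic stem cells, 3 of wild-type cells and 3 of cells carrying Dido3deltaCT, a Dido3 protein without its C-terminal part. Dido3 is the longest protein of the gene Dido1. Cells of both genotypes were kept in self-renewal medium with leukemia inhibitory factor (LIF) and grown in parallel. The labels call the arrays of a group biological replicates but do not say how many lines or clones each group holds. The p-values therefore set differences against the spread between these cultures and cannot speak for other lines or clones. The study addresses the part of Dido in the choice between self-renewal and differentiation. Values are log2 expression values as deposited, and differences are given as truncated minus wild type, so that negative values are lower in truncated cells.

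Several features of the arrays bear on these genes. Of 5 Dido1 probe sets, 2 were lower in truncated cells and passed the test (limma adjusted p = 0.00106 and 0.0130). Another, 1437182_at, was higher by 0.68 with no overlap between the groups and did not pass (limma adjusted p = 0.0721). The probe sets 1431258_at and 1444744_at differed by 0.05 and 0.03 without a call. Where the probe sets lie relative to the removed part was not analysed here. Embryonic stem cell markers were high on every array, with a mean over 12 genes of 10.9 to 11.1. The mean of 23 fibroblast markers (23 of the 24 listed were measured) was lowest on wild-type replicate 3 (5.99), followed by truncated replicate 2 (7.20), and lay between 8.46 and 9.04 on the other 4 arrays, so 2 arrays carried less fibroblast RNA. The range was 5.99 to 9.04 in wild-type and 7.20 to 8.52 in truncated arrays. Poly-A spike-in controls were high on those 2 arrays (12.1 and 12.5 against 6.12 to 7.85), which are called the high-control pair below. Fewer fibroblasts and less RNA per fibroblast cannot be told apart in such bulk RNA. Y-linked Eif2s3y was at 8.43 to 8.69 in wild-type and 3.43 to 3.86 in truncated arrays. Of 6 sex-linked genes measured, 3 fell past the threshold among genes (Eif2s3y, Uba1y and Uty) and 2 did not pass. The 1 that rose was X-linked Xist, by 0.57 (limma adjusted p = 0.0483). The groups thus also differed in sex-linked RNA, whose part in the results was not tested. The log2 difference of the 3' over the 5' beta-actin control was 0.96 to 1.17 in wild-type and 0.83 to 0.87 in truncated arrays. That of the Gapdh control was 0.30 to 0.32 in wild-type and 0.20 to 0.24 in truncated arrays. Both had an exact permutation p = 0.1, the smallest that 3 against 3 arrays allow. The part of this difference between the groups was not tested either.

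Egr1 and Zfp36 fell in the truncated cells, and 6 other genes had no call. Fos was lower, with a call that depended on the number of features tested, the fit and the arrays kept. Tested over all probe sets, 2 of the 10 member probe sets passed an adjusted p of 0.05 and both fell, where 2.80% of all 45037 probe sets passed and 1.12% passed and fell. Tested with 1 probe set per gene, 3 of the 9 genes passed, Fos being the additional one, where 4.67% of genes passed, 1.97% by falling and 2.70% by rising. The median difference of the 10 probe sets was -0.15, against 0.0062 for all probe sets. The 2 groups did not overlap for 6 of the 10, against 18.6% of all probe sets, and 5 of these 6 were lower in truncated cells, against 8.89%. The exception was a Jun probe set. The members were chosen with earlier results of these data known, so these counts describe the set and are not independent support for a direction.

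**Figure D1:**
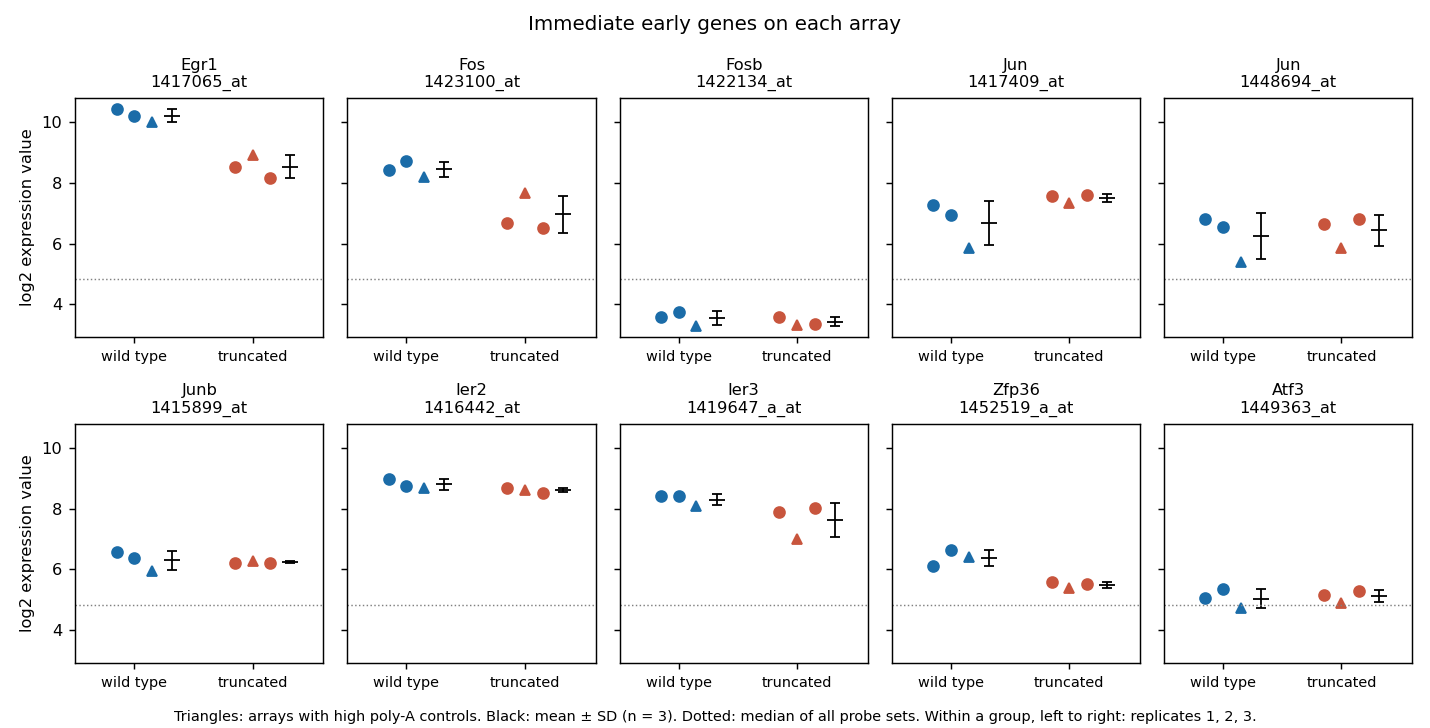
Log2 expression value (vertical axis) of each of the 10 member probe sets on the 3 wild-type (blue) and 3 truncated (red) arrays; triangles mark the 2 arrays with high poly-A controls, black bars the mean ± SD and the dotted line the median of all probe sets. The groups are separated for Egr1, Fos and Zfp36, while Fosb lies below the dotted line on all 6 arrays.

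Egr1 encodes a zinc finger transcription factor and is a direct target of ERK signalling through SRF and the ternary complex factors. Its probe set, 1417065_at, was at 10.45, 10.22 and 10.00 on wild-type replicates 1, 2 and 3. On truncated replicates 1, 2 and 3 it was at 8.53, 8.93 and 8.16. All 3 truncated arrays lay below all 3 wild-type arrays, and the nearest values of the groups were more than 1 log2 unit apart. The group values were 10.22 ± 0.22 and 8.54 ± 0.39 (SD, n = 3 each). Truncated cells were 3.21-fold lower, a log2 difference of -1.68 (SE 0.21; 95% confidence interval -2.18 to -1.19; limma adjusted p = 0.0124). The difference was -1.99 within the 4 low-control arrays and -1.07 within the high-control pair. With the fibroblast mean as a covariate it was -1.69 (limma adjusted p = 0.00775). The group means of this covariate were close, 7.94 in wild-type and 8.06 in truncated arrays. The fit could therefore hardly move the difference, and the part of fibroblast RNA was not tested by it. The call was lost when wild-type replicate 2 was left out (adjusted p = 0.0714), and likewise for truncated replicates 1 (0.0939) and 3 (0.0573), with differences of -1.69, -1.68 and -1.50.

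Fos and Fosb encode the FOS subunits of AP-1, which bind DNA only as dimers with a JUN protein. Fos (1423100_at) was at 8.43, 8.71 and 8.21 in wild-type replicates 1, 2 and 3. In the truncated replicates it was at 6.69, 7.67 and 6.52. The groups did not overlap, and truncated replicate 2, an array with few fibroblast transcripts, was the highest truncated array, as it was for Egr1. The difference was -1.49 (SE 0.30; 95% confidence interval -2.21 to -0.77), which is 2.81-fold lower. It missed the threshold among all probe sets (limma adjusted p = 0.0562) and passed among genes (0.0449). It was -1.97 within the 4 low-control arrays, where it passed (adjusted p = 0.0158; 2.53% of probe sets passed there), and -0.54 within the high-control pair. A test of whether the group difference itself differed between these sets of arrays did not pass for Fos (interaction 1.43, SE 0.24, limma adjusted p = 0.354) or for the other members (0.354 to 0.888 over the 10 probe sets). By this test 0 of the 45037 probe sets passed in limma, and 4760 had an unadjusted p under 0.05. Among genes, Fos lost its call when any 1 of the 4 low-control arrays was left out.

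Fosb (1422134_at) was below the median of all probe sets, 4.82, on each array, with values from 3.28 to 3.74 in wild-type and 3.30 to 3.59 in truncated cells. At this level the arrays could not show whether it differed. The difference was -0.11 (95% confidence interval -0.45 to 0.22; limma adjusted p = 0.808).

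**Figure D2:**
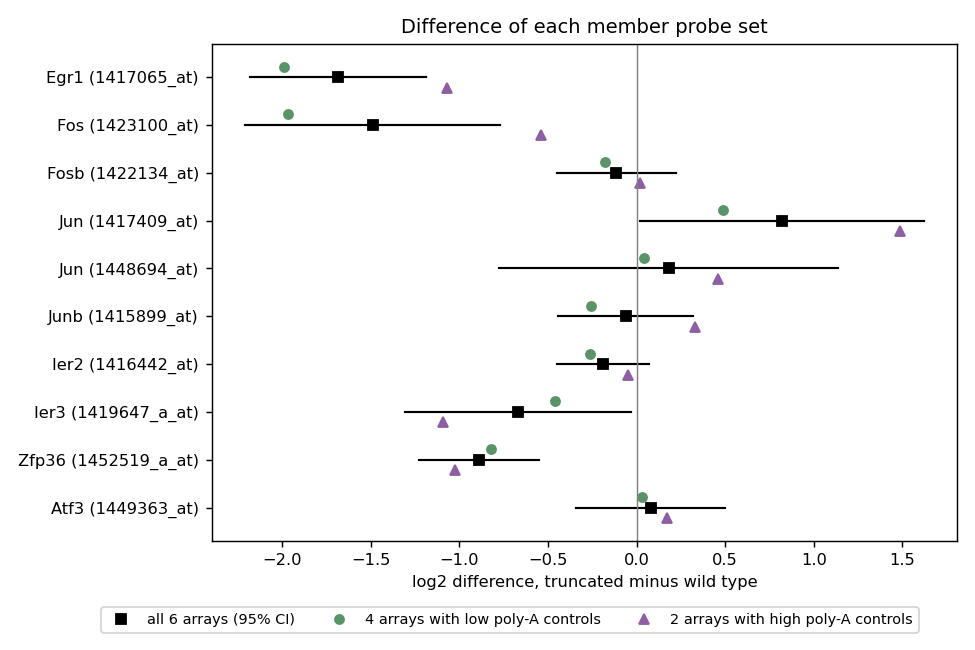
Log2 difference, truncated minus wild type, of each member probe set over all 6 arrays (squares, with limma's 95% confidence interval), within the 4 arrays with low poly-A controls (circles) and within the high-control pair (triangles). Egr1, Fos, Ier2, Ier3 and Zfp36 lie below 0 on all 3 measures, and the circle of Fos at -1.97 lies far from its triangle at -0.54.

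Jun and Junb encode the JUN subunits of AP-1. The 2 probe sets of Jun gave different pictures. With 1417409_at, wild-type replicates 1, 2 and 3 were at 7.26, 6.94 and 5.85, and truncated replicates at 7.56, 7.34 and 7.60. The groups did not overlap, and truncated cells were higher by 0.82 (SE 0.34; 95% confidence interval 0.02 to 1.62), which did not pass (limma adjusted p = 0.318). Without wild-type replicate 3, the lowest array, the difference was 0.41 (adjusted p = 0.202). With 1448694_at, wild-type replicates were at 6.81, 6.54 and 5.40 and truncated replicates at 6.64, 5.86 and 6.79. These overlapped, with a difference of 0.18 (95% confidence interval -0.78 to 1.14; limma adjusted p = 0.905). With the fibroblast mean as a covariate, 1417409_at passed as higher (0.77, adjusted p = 0.0148; 7.03% of probe sets passed in that fit) and 1448694_at did not.

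The lowest values of 1448694_at were on the 2 arrays that had few fibroblast transcripts. With group in the fit, this probe set was lower on those arrays by 1.07 (SE 0.14), a difference that did not pass over all probe sets (limma adjusted p = 0.0864). Here 0.0466% of all probe sets passed, and 6949 had an unadjusted p under 0.05. The other Jun probe set, 1417409_at, was lower there by 0.74 (limma adjusted p = 0.221). For that probe set only wild-type replicate 3 stood apart, at 5.85. Truncated replicate 2 was at 7.34, close to the other truncated arrays (7.56 and 7.60). Outside the set, Fosl2 encodes another FOS-family subunit. Like 1448694_at, it was lowest on the 2 arrays with few fibroblast transcripts. Its brightest probe set (1437247_at) was at 7.46, 6.73 and 4.25 in wild-type and 6.69, 5.59 and 6.83 in truncated replicates, and the 2 arrays were lower together (-2.01 with group in the fit; limma adjusted p over genes = 0.103). Another Fosl2 probe set, 1422931_at, was at 5.42 to 5.84 in wild-type and 5.42 to 5.52 in truncated arrays (difference -0.16, limma adjusted p = 0.643). For Egr1 and Fos the term for the high-control pair was 0.13 and 0.35 with group in the fit, which did not pass (limma adjusted p = 0.835 and 0.645). These terms average 2 arrays that moved in opposite directions. Wild-type replicate 3 was the lowest wild-type array (10.00 for Egr1 and 8.21 for Fos). Truncated replicate 2 was the highest truncated array (8.93 and 7.67). A small term therefore does not show that these genes were alike on the 2 sets of arrays. The part of fibroblast RNA in the Jun values was not tested apart from the spike-in controls, which mark the same arrays.

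**Figure D3:**
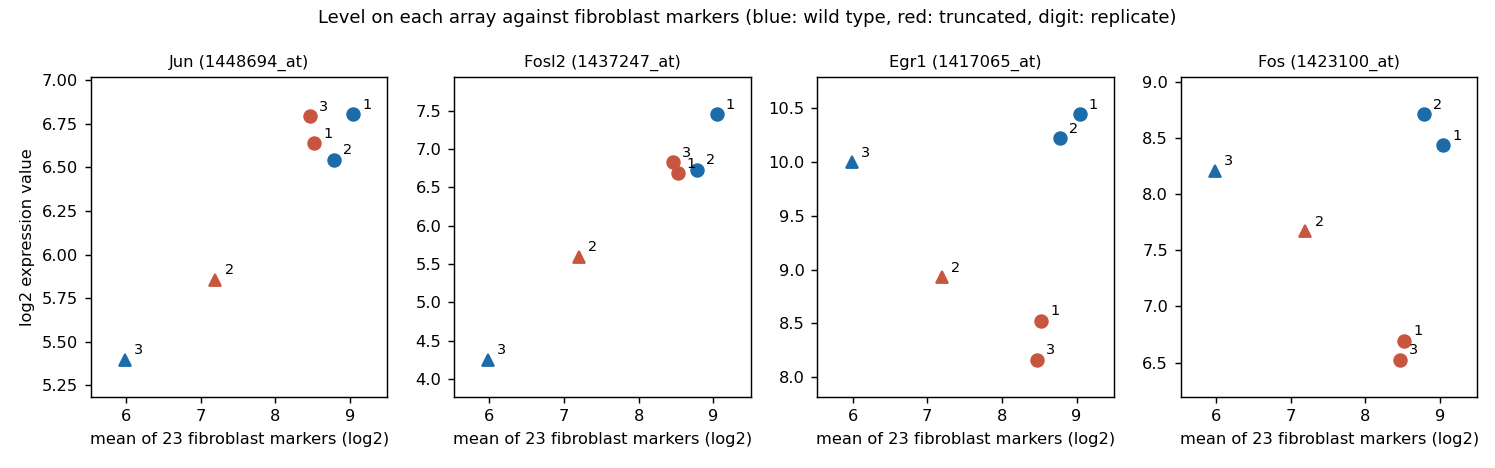
Log2 expression value of Jun (1448694_at), Fosl2, Egr1 and Fos (vertical axes, scaled separately) against the mean of 23 fibroblast markers on the same array (horizontal axis); blue is wild type, red is truncated, digits are replicates and triangles mark high poly-A controls. This Jun probe set and Fosl2 are lowest on the 2 arrays with few fibroblast transcripts, at 5.40 and 5.86 for Jun. The other Jun probe set, not drawn, was low on only 1 of them. Egr1 and Fos separate by genotype.

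Junb (1415899_at) ranged from 5.94 to 6.57 in wild-type and from 6.22 to 6.27 in truncated arrays. The truncated arrays fell inside the wild-type range. The difference was -0.06, with a 95% confidence interval of -0.44 to 0.32 that leaves out a change of the size seen for Egr1 (limma adjusted p = 0.921).

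Atf3 encodes a stress-induced factor of the ATF family that can also pair with JUN proteins. It was measured close to the median of the arrays, at 5.04, 5.33 and 4.72 in wild-type and 5.15, 4.89 and 5.28 in truncated replicates. The groups overlapped. The difference was 0.08 (95% confidence interval -0.34 to 0.50; limma adjusted p = 0.905).

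Ier2 and Ier3 are known as immediate early response genes, and Ier3 is also linked to cell survival. Ier2 (1416442_at) was at 8.99, 8.74 and 8.67 in wild-type and 8.67, 8.63 and 8.53 in truncated replicates. The groups did not overlap, but the nearest arrays were almost level. The difference of -0.19 (SE 0.11; 95% confidence interval -0.45 to 0.07) did not pass (limma adjusted p = 0.50). Ier3 (1419647_a_at) was at 8.41, 8.41 and 8.09 in wild-type and 7.89, 6.99 and 8.02 in truncated replicates. Truncated replicate 2, of the high-control pair, was the lowest array, and the groups did not overlap. The difference was -0.67 (SE 0.27; 95% confidence interval -1.31 to -0.03; limma adjusted p = 0.305), and without truncated replicate 2 it was -0.35 (adjusted p = 0.316). With the high-control pair as a block, Ier3 passed among genes, where 8.62% passed, but not among probe sets (adjusted p = 0.0542).

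Zfp36 encodes tristetraprolin, which binds AU-rich elements in mRNAs, those of early genes among them, and recruits the decay machinery. Its probe set, 1452519_a_at, was at 6.11, 6.62 and 6.39 in wild-type replicates 1, 2 and 3. In truncated replicates it was at 5.57, 5.37 and 5.52. The 3 truncated arrays lay close together and below all wild-type arrays. The group values were 6.38 ± 0.26 and 5.49 ± 0.10 (SD, n = 3 each). Truncated cells were 1.85-fold lower, a log2 difference of -0.89 (SE 0.14; 95% confidence interval -1.23 to -0.55; limma adjusted p = 0.0280). The difference was -1.02 within the high-control pair and -0.82 within the other 4 arrays, and the interaction did not pass (limma adjusted p = 0.881). The call ended within those 4 arrays (adjusted p = 0.112) and without wild-type replicate 2 (0.0846) or truncated replicate 1, 2 or 3 (0.125, 0.0873 and 0.136), with differences between -0.77 and -0.93.

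The 250 bases before the start sites of Zfp36 and Fos are shown because both transcripts were lower and their windows hold different motifs. Of the 7 members in the promoter table, only Zfp36 had a window that held a CArG box, the SRF binding motif. Bases further than 250 before the start were not searched, so the search cannot show whether other members hold this motif there. Fos was added after its values were seen. The sequences are from RefSeq on build GRCm38.p6, at chr7:28379229-28379478 on the minus strand for Zfp36 and chr12:85473640-85473889 on the plus strand for Fos, written 5′ to 3′ along the gene with motif matches in capitals.
Zfp36: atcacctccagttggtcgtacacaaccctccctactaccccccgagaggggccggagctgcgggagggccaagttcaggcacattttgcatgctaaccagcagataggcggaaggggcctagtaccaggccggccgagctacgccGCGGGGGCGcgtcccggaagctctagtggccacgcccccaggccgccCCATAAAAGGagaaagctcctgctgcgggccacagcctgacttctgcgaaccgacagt
Fos: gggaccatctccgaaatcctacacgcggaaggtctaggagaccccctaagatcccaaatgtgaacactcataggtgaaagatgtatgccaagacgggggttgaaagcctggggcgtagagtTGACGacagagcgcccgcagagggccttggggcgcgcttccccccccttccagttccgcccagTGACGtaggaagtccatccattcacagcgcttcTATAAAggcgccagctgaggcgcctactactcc
In Zfp36 the capitals mark an EGR motif (-105 to -97 from the start) and the CArG box (-58 to -49). In Fos they mark 2 copies of TGACG, the core of the cyclic AMP response element (-129 to -125 and -66 to -62), and a TATA box (-33 to -28).

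Promoter windows of 300 bases, 250 before to 50 after the start, were in the RefSeq table for 7 of the 9 members, all but Egr1 and Ier2. Motifs were searched on both strands. The CArG box was found in 1 of the 7 windows, against 1.63% of all 32851 windows in the table. The EGR motif GCGNGGGCG was in 2 (Zfp36 and Fosb), against 5.55%. TGACG was in 4 (Fos, Fosb, Junb and Atf3), against 20.8%, and the full element TGACGTCA, which contains it, was in 0, against 1.79%. The AP-1 motif TGANTCA was in 0, against 7.81%, and TATAAA in 2 (Fos and Junb), against 13.6%. Of the members in the table, Zfp36 and Fos passed among genes, both as lower. Zfp36 had the CArG and EGR motifs and Fos had neither in this window. Ier3, which was lower without a call, and Jun held none of the motifs searched. A match is a description of these letters and not a measured binding site.

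Among the other early response genes, no fall passed the test. Of 47 such genes, all measured, 1 rose, 0 fell and 46 did not pass, and the median difference was 0.04, against 0.0071 for all genes. Btg2, an antiproliferative gene, rose from 7.83, 7.34 and 8.09 in wild-type to 8.82, 8.50 and 8.84 in truncated replicates, by 0.97 (SE 0.20; limma adjusted p = 0.0488). Its groups did not overlap, in the direction opposite to Egr1. Over all probe sets this call was missed, as for Fos (limma adjusted p = 0.0612), and another Btg2 probe set, 1448272_at, was higher by 0.61 without a call there (0.267). The ERK phosphatase gene Dusp1 was at 9.68, 9.87 and 9.62 against 9.70, 9.68 and 9.55, a difference of -0.08 (limma adjusted p = 0.772). These groups overlapped on a bright probe set. Nr4a1, an orphan nuclear receptor gene, differed by 0.04 (adjusted p = 0.909), Myc by 0.25 (0.726), Jund by 0.32 (0.257) and Ier5 by -0.31 (0.457). Of the EGR family, Egr2 differed by -0.48 at values mostly below the median of the arrays (adjusted p = 0.466) and Egr3 by 0.08 (0.740). Fosl1 differed by -0.05 (0.979).

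**Figure D4:**
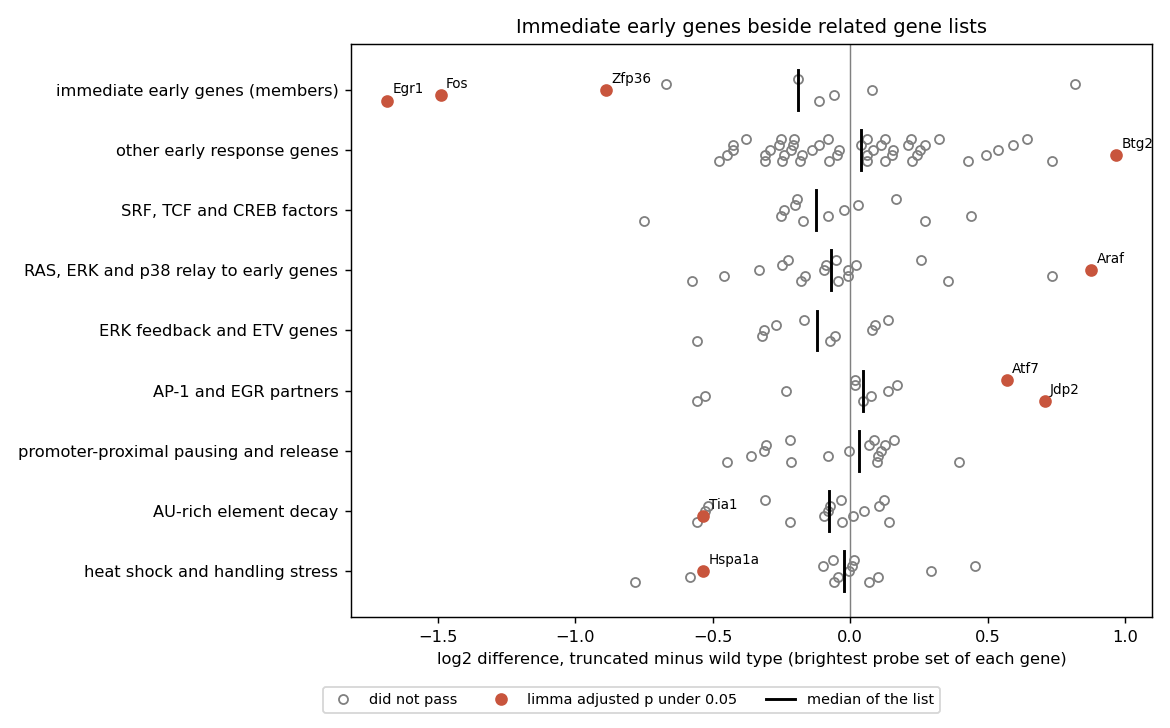
Log2 difference, truncated minus wild type, of each measured gene (brightest probe set) in the 9 immediate early genes and 8 related lists; filled points passed limma's adjusted p of 0.05 over all genes, open points did not, and black bars are list medians. Egr1, Fos and Zfp36 lie furthest left, and Btg2, Araf, Jdp2 and Atf7 are the filled points right of 0.

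The factors and kinases that switch these genes on were mostly without a call. Of 12 measured genes for SRF, the ternary complex factors and CREB, 0 rose and 0 fell (median -0.12; 8 lower, 4 higher). Srf differed by -0.08 (limma adjusted p = 0.772), with an SE of 0.10, and the ternary complex factor genes Elk1, Elk3 and Elk4 by 0.27, -0.20 and -0.17 (adjusted p = 0.299, 0.726 and 0.414). The lowest difference on the list was that of Creb1, which encodes CREB and was added after its values were seen. Its brightest probe set, 1452901_at, was at 8.02, 8.17 and 8.52 in wild-type and 7.30, 7.81 and 7.35 in truncated replicates. The groups did not overlap, and the difference of -0.75 did not pass (limma adjusted p = 0.0758). It passed with array weights (0.0165), with the high-control pair as a block (0.00778), within the 4 low-control arrays (0.0323) and with the fibroblast covariate (0.0102). The 5 other Creb1 probe sets differed by -0.54 to 0.28 without a call, and with the probe sets of a gene averaged the difference was -0.15 (0.488). Of 18 measured genes of the RAS, ERK and p38 relay, 1 rose and 0 fell (median -0.07). This was Araf, a RAF kinase gene on the X chromosome, at 6.90, 7.05 and 6.44 in wild-type and 7.63, 7.53 and 7.86 in truncated replicates (difference 0.88, limma adjusted p = 0.0428). Over all probe sets this probe set missed the threshold (adjusted p = 0.0534), as did the 4 other Araf probe sets, which differed by -0.31 to 0.47, the highest being 1435566_s_at (0.0595), and the mean of all 5 gave 0.31 (adjusted p = 0.110). Of 10 ERK feedback and ETV genes, which report ERK activity in stem cells, 0 passed. On this list 7 were lower and 3 higher (median -0.12, highest 0.14). Dusp6, an ERK phosphatase gene, differed by -0.32 (limma adjusted p = 0.325). The lowest difference was that of Spry4, which was added after its values were seen. Its brightest probe set, 1440867_at, differed by -0.56 with no overlap between the groups and did not pass (limma adjusted p = 0.151).

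Among 11 measured partners of AP-1 and EGR proteins, 2 rose and 0 fell. Jdp2, a repressive partner of JUN, was at 6.98, 6.62 and 6.98 in wild-type and 7.75, 7.37 and 7.58 in truncated replicates, so the groups did not overlap (difference 0.71, limma adjusted p = 0.0459). Over all probe sets it missed the threshold (adjusted p = 0.0570), and another Jdp2 probe set, 1424972_at, differed by 0.08 (0.821). Atf7, a relative of Atf2, rose by 0.57 at values below the median of the arrays (adjusted p = 0.0495). Over all probe sets it missed the threshold (0.0607), its other probe set, 1425653_at, differed by 0.03, and 11 of the 16 alternatives ended the gene-level call. Of 16 genes of promoter-proximal pausing and its release, the step at which many early genes are held, 0 passed (median 0.03; lowest -0.45, highest 0.40).

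Of 16 measured genes of AU-rich element decay, 1 fell and 0 rose. Tia1, an RNA-binding protein that represses translation of such mRNAs, was at 8.21, 8.14 and 8.25 in wild-type and 7.55, 7.67 and 7.78 in truncated replicates (difference -0.53, limma adjusted p = 0.0308). Over all probe sets it passed as well (0.0359), and of the 5 other Tia1 probe sets 2 also fell, with differences of -0.91 for 1416813_at and -1.31 for 1416814_at (limma adjusted p = 0.0319 and 0.0459). The other 3, with means below the median of the arrays, did not pass, with differences of -0.51 for 1437934_at (adjusted p = 0.0505), 0.25 for 1431708_a_at (0.682) and 0.09 for 1453803_at (0.784). Zfp36l1 and Zfp36l2, the relatives of Zfp36, differed by -0.08 and -0.22 (adjusted p = 0.897 and 0.765), and Zfp36l1 overlapped between the groups at values between 9.63 and 10.20.

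Heat shock genes were read as a sign of handling. Of 14 measured, 1 fell and 0 rose (median -0.02), and their mean was 9.48 to 9.70 in wild-type and 9.45 to 9.54 in truncated arrays (exact permutation p = 0.3). The gene that fell, Hspa1a, lay below the median of the arrays on each array, at 4.26, 4.05 and 4.15 against 3.66, 3.70 and 3.51 (difference -0.54, limma adjusted p = 0.0357). The near-identical copy Hspa1b was brighter, and its brightest probe set, 1452318_a_at, differed by -0.78, with an overlap between the groups (limma adjusted p = 0.184). Its probe sets 1427126_at and 1427127_x_at differed by -0.77 and -0.89 with no overlap between the groups. They did not pass over all probe sets (limma adjusted p = 0.125 and 0.116). The platform may not separate the copies. Times from feeding or handling to lysis are not given in the sources used here, and their part in the falls of Egr1, Fos and Zfp36 was not tested. Over the 8 related lists, 144 of 160 genes were measured and 6 passed, 4 up and 2 down, where 4.67% of all genes passed. The calls of Btg2, Araf, Jdp2, Tia1 and Hspa1a each ended with any 1 array left out except wild-type replicate 3, and that of Atf7 with any 1 array left out. The calls of Btg2, Araf, Jdp2, Tia1 and Atf7 also ended when the probe sets of each gene were averaged, and those of Jdp2, Tia1, Hspa1a and Atf7 within the 4 low-control arrays.

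Over the 6 arrays, the expressed genes most like Egr1 by Pearson correlation were Eif4enif1 (r = 0.998), Tmem64 (0.996), Mrpl51 (0.995), Mrpl36 (0.995) and Phlda2 (0.994), taken from 11292 genes. Their sizes differed widely: Tmem64, Mrpl36 and Phlda2 fell, with differences of -1.54, -0.66 and -2.28 (limma adjusted p = 0.0126, 0.0353 and 0.00961), while Eif4enif1 and Mrpl51 differed by -0.25 and -0.32 and did not pass (0.169 and 0.110). The genes most like Fos were Rasgrp2 (r = 0.995), Pspc1 (0.995), Hmgxb4 (0.994), Socs2 (0.993) and Smarcd1 (0.992). Of these, Hmgxb4 fell by 1.47 (limma adjusted p = 0.0338), and Rasgrp2, Pspc1 and Socs2 differed by -1.24, -0.95 and -0.75 without a call (0.0581, 0.0673 and 0.0567), and Smarcd1 by -0.31 (0.155). These correlations describe 6 points that share the split into 2 genotypes and were picked as the highest of many. No other member of the set was among the 5 most like genes of Egr1 or of Fos.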

How the data were processed

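The authors deposited 1 value per probe set and array on a log2 scale, as judged from the range of the values. Their summary and normalisation steps are not given in the sources used here. RNA was extracted with TRIzol, cleaned on columns and labelled with biotin in a single cycle, per the labels' protocols. Array medians were 4.80 to 4.86. Of 45101 probe sets, 64 controls were left out and 45037 tested; 34945 had 1 gene symbol, 932 had several and were not used for a gene, and 9160 were unnamed here. The number of arrays limits the precision.

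Groups were compared with lmFit and eBayes of limma 3.58.1 (R 4.3.3), group as the only term, two-sided, with Benjamini-Hochberg adjustment over all probe sets (members) or over 18193 genes, each by its brightest probe set (lists). The threshold was an adjusted p of 0.05. Arrays were set apart as a spike-in batch where the mean of 24 poly-A control probe sets lay over 2 log2 units above the median array. The interaction and batch terms were added after seeing the data. Fits were tested on simulated arrays. Members and lists were chosen with earlier results of these data known.

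Named were all member probe sets, up to 5 genes past the threshold per related list, and 17 always-named genes. The 5 genes most correlated with Egr1 and with Fos were named as well. Hspa1b, Creb1 and Spry4 were added after their values were seen. Alternatives are listed with their effect in the closing section. Same-numbered arrays did not deviate from their group means together (r = 0.365, -0.414 and -0.149 over 11728 genes), so the replicate numbers were not taken as pairs. Plots were drawn with matplotlib 3.10.9.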

Additional observations from a re-analysis of the deposited data

How the results depend on the processing

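With 6 arrays, several calls rest on single cultures. Egr1, Fos and Zfp36 kept their direction in every alternative run. Their groups did not overlap, so leaving out or weighting arrays could not have changed the direction. The fits with a block returned the same differences by design. The limma adjusted p ran from 0.00366 to 0.0939 for Egr1, 0.0149 to 0.239 for Fos and 0.0148 to 0.136 for Zfp36. Egr1 passed in 13 of 16 alternatives, Fos in 8 and Zfp36 in 10. The count of member probe sets that passed was 4 with the fibroblast mean as a covariate, against 2, and 0 to 2 with each array left out; that of member genes was 0 to 3, against 3. On the related lists it was 17 with array weights, 15 with the high-control pair as a block, 18 with the fibroblast covariate and 0 to 9 with each array left out, against 6. The share of all genes that passed moved as well, to 11.3% with array weights, 8.62% with that block, 10.9% with the covariate and 0.709% to 6.55% with each array left out, against 4.67%, so these counts show nothing particular to the lists. With the replicate number as a block, 2 member probe sets passed (Egr1 and Fos, not Zfp36), 2 member genes, and 2 genes on the related lists, where 2.56% of all genes passed.

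Differences without a call changed sign in 22 cases. Atf3 was at -0.0132 and Zfp36l1 at 0.0369 with array weights; Fosl2 was at -0.11 there. Within the 4 low-control arrays Fosl2 was at -0.34, Myc at -0.16 and Nr4a1 at -0.0555. In the mean of all probe sets Egr3 was at -0.14 and Srf at 0.0118; without probe sets ending in _x_at or _s_at Srf was at 0.10. With each array left out the ranges were -0.25 to 0.47 for Jun (1448694_at), -0.24 to 0.0776 for Junb, -0.0753 to 0.23 for Atf3, -0.39 to 0.0383 for Elk3, -0.56 to 0.43 for Fosl1, -0.73 to 0.88 for Fosl2, -0.0779 to 0.45 for Myc, -0.0227 to 0.11 for Nr4a1 and -0.25 to 0.0362 for Zfp36l1. In the 200 bases before the start alone, the TATA box was found in 1 member, against 2, and the other motif counts were as before.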
